A study of Mus musculus with 21 samples.

Results

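Bod1l, Golga4, Ankrd12, Birc6, Syne2, Dync1h1, Lyst, Resf1, Baz2b and Atxn2 are 10 of the 9657 genes measured in primary mouse hepatocytes treated with RNAi agents. They were picked from earlier results on the same libraries, as genes with long transcripts that were lower with 2 µM of an agent than with PBS. Their differences from PBS at 2 µM are therefore given as a description. Counts of adjusted p under 0.05 in those comparisons describe the values that chose the genes and are not a test of them, and tests are read only where the choice did not use the values.

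The cells were wild-type primary hepatocytes, liver cells brought into culture, and RNA was taken on Day 1. They received TTR-1236 at 0.2 or 2 µM, TTR-1186 at 0.2 or 2 µM, Reference 4 at 0.2 or 2 µM, or PBS, in 7 groups of 3 libraries. An RNAi agent is a short RNA that guides cleavage of a matching mRNA, and all 3 agents were directed at Ttr, the transthyretin gene. The labels do not say how the agents differ in structure, how they entered the cells or how many mice the cells came from. The labels also do not say whether libraries of a group came from separate cultures or animals, so every p-value refers to the spread between these libraries alone, which may be technical.

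Levels are in CPM, the reads of a gene per 1000000 reads of all measured genes in its library. Differences are on the scale of log2(CPM + 1) with their standard error, from limma over all 21 libraries, and a gene was called where its Benjamini-Hochberg adjusted p over all genes was under 0.05. On this scale the differences of genes with low CPM are understated. Libraries held 14158740 to 37410773 reads over the measured genes. The group means of Ttr were 7.09 to 19.2 CPM in the treated groups, against 2258 ± 84.7 CPM in PBS (SD, n = 3), so the treated and PBS libraries followed their labels. A pair of libraries stood apart within their groups. PBS replicate 3 had 0.797% of its CPM in mitochondrial ribosomal RNA, against 3.26% and 2.70% in the other PBS libraries. TTR-1186 2 µM replicate 2 had 109 genes at 0, against 0 to 29 in the other 20 libraries. Mitochondrial ribosomal RNA was also low for its group in TTR-1186 0.2 µM replicate 2, at 1.49% against 3.73% and 3.12%. In Reference 4 2 µM replicate 3 it was 0.383%, against 1.10% and 0.819%. Neither of these libraries is counted in that pair. Of 15 hepatocyte markers 14 were measured, with summed levels of 29050 to 40330 CPM in treated libraries and 31820 to 45550 CPM in PBS libraries. For immune cells 2 of 14 markers were measured, for endothelial cells 3 of 10, for stellate cells and fibroblasts 3 of 10, and for cholangiocytes 2 of 8. At 2 µM some of their summed levels moved with the agents. Immune markers summed to 101.9 to 157 CPM with TTR-1236, 77.2 to 120 CPM with TTR-1186 and 128 to 157 CPM with Reference 4, against 79.6 to 101.3 CPM in PBS. Cholangiocyte markers summed to 42.8 to 47.2 CPM with TTR-1236, 31.6 to 42.3 CPM with TTR-1186 and 44.5 to 48.2 CPM with Reference 4, against 29.1 to 42.25 CPM in PBS. Both sums lay above every PBS library with TTR-1236 and Reference 4. Stellate and fibroblast markers, mostly Vim, summed to 346 to 398 CPM with TTR-1236, below every PBS library, 657 to 906 CPM with TTR-1186 and 346 to 506 CPM with Reference 4, against 402 to 797 CPM in PBS. Endothelial markers summed to 30.3 to 39.3 CPM with TTR-1236, 26.1 to 30.8 CPM with TTR-1186, below every PBS library, and 31.8 to 43.8 CPM with Reference 4, against 36.6 to 45.4 CPM in PBS. At 0.2 µM the sums were 85.1 to 184 CPM for immune, 24.5 to 43.2 CPM for cholangiocyte, 421 to 939 CPM for stellate and 23.4 to 50.8 CPM for endothelial markers. Their part in the results below was not tested, and in bulk libraries fewer cells of a type and less RNA per cell cannot be told apart.

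The 10 genes do not form 1 pathway. Golga4 encodes a golgin that tethers vesicles at the trans-Golgi, Dync1h1 the heavy chain of cytoplasmic dynein, the motor that carries cargo along microtubules, Syne2 the nesprin that links the nucleus to the cytoskeleton, and Lyst a regulator of lysosome traffic that is mutated in beige mice. Bod1l, Baz2b, Resf1 and Ankrd12 encode nuclear proteins: a partner of the SET1A histone methyltransferase, a bromodomain subunit of chromatin remodelling complexes, a partner of the silencing enzyme SETDB1 and a corepressor of nuclear receptors. Atxn2 encodes ataxin-2, which binds RNA and poly(A)-binding protein, and Birc6 a giant ubiquitin-conjugating enzyme of the inhibitor of apoptosis family. The levels were read by QuantSeq, in which an oligo(dT) primer pairs with a run of A, normally the poly(A) tail, so that a transcript is counted near its 3′ end. mt-Rnr1 and mt-Rnr2 are the small and large ribosomal RNAs of the mitochondrion, made from mitochondrial DNA.

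What these genes share in sequence is a long coding region, often rich in A. Since they were picked as genes with long transcripts, their length describes that choice and is not a result. In GENCODE's models on GRCm38, which is the build the authors' notes call mm10, their coding sequences had a median of 7908 bases (3861 in Atxn2 to 20613 in Syne2), against 1299 bases over 8543 other protein coding genes. All 10 exceeded the 90th percentile of the others, 3392 bases. For whole transcripts, 8 of 10 exceeded the 90th percentile of the others, 6648 bases. Resf1 (6066 bases) and Atxn2 (4472 bases) did not, so for them the coding part and not the transcript was long. Their 3′UTRs were not long, with a median of 943.5 bases against 1119, and 1 of 10, that of Ankrd12 (4454 bases), exceeded the 90th percentile of 3655 bases. A made up a median of 30.8% of the coding bases of the 10 genes, against 25.6% in the others. It was over the 90th percentile of 31.5% in Ankrd12 (36.6%), Resf1 (36.4%), Bod1l (34.8%), Golga4 (32.3%) and Baz2b (31.6%), while Dync1h1 (25.7%) was near the median of the others and Atxn2 (23.6%) below it.

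To show what such an A-rich coding sequence looks like, the 40 coding bases with the most A are printed for the 5 genes over that percentile and, beside them, for Dync1h1. Capitals mark runs of at least 4 A, and each sequence is read 5′ to 3′ along the mRNA.
Bod1l, chr5:41832350-41832389, minus strand, exon 4: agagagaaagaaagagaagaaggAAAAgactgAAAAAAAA
Golga4, chr9:118556716-118556755, plus strand, exon 15: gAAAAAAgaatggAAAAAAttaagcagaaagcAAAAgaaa
Ankrd12, chr17:65987006-65987045, minus strand, exon 9: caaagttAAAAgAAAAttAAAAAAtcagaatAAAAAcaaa
Resf1, chr6:149328978-149329017, plus strand, exon 3: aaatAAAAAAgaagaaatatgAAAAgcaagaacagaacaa
Baz2b, chr2:59901937-59901976, minus strand, exon 33: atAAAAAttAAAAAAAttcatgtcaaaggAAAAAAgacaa
Dync1h1, chr12:110635982-110636021, plus strand, exon 31: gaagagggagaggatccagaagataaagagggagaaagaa
Ankrd12 and Resf1 had 28 A in 40 bases, Bod1l and Golga4 27 and Baz2b 26, whereas the richest stretch of Dync1h1 held 20 A and no run of 4. That of Atxn2, not printed, held 24 A and no run of 4 either. A run of at least 8 A lay in the coding sequence of 3 of the 10 genes, Bod1l, Ankrd12 and Birc6, against 3.13% of the other genes and 11.4% of the 615 others as long as the shortest of the 10. Whether reads began at such stretches was not tested, since the files hold 1 value per gene.

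In the comparisons of 2 µM with PBS nothing is read from the counts, since the genes were chosen for their fall at 2 µM. All 10 genes had a lower mean at 2 µM of TTR-1236 than in PBS. Every treated library lay below every PBS library for each of them, which 11.9% of all genes did. The median log2 difference of the 10 genes was -1.88, against -0.07 over all genes. Adjusted p was under 0.05 in 8 of 10, all except Syne2 and Lyst, against 4.89% of all genes called lower and 1.44% called higher. At 2 µM of Reference 4 the median was -1.62, against -0.03 over all genes. All 3 libraries lay below all 3 PBS libraries for 7 genes (10.8% of all genes), and 6 passed (1.66% of all genes were called lower and 0.59% higher). At 2 µM of TTR-1186 the median was -0.57, against -0.01 over all genes. There 0 of 10 passed in limma (0.0414% of all genes were called lower and 0.0104% higher), and 3 were under an unadjusted p of 0.05, as 890 of all genes were. edgeR called 0 of the 10, with 3 of all genes lower and 0 higher. DESeq2 called Lyst, with 14 of all genes lower and 12 higher. All 3 libraries lay below PBS for Dync1h1 and Lyst (5.85% of all genes did so). These comparisons also share the PBS libraries.

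**Figure D1:**
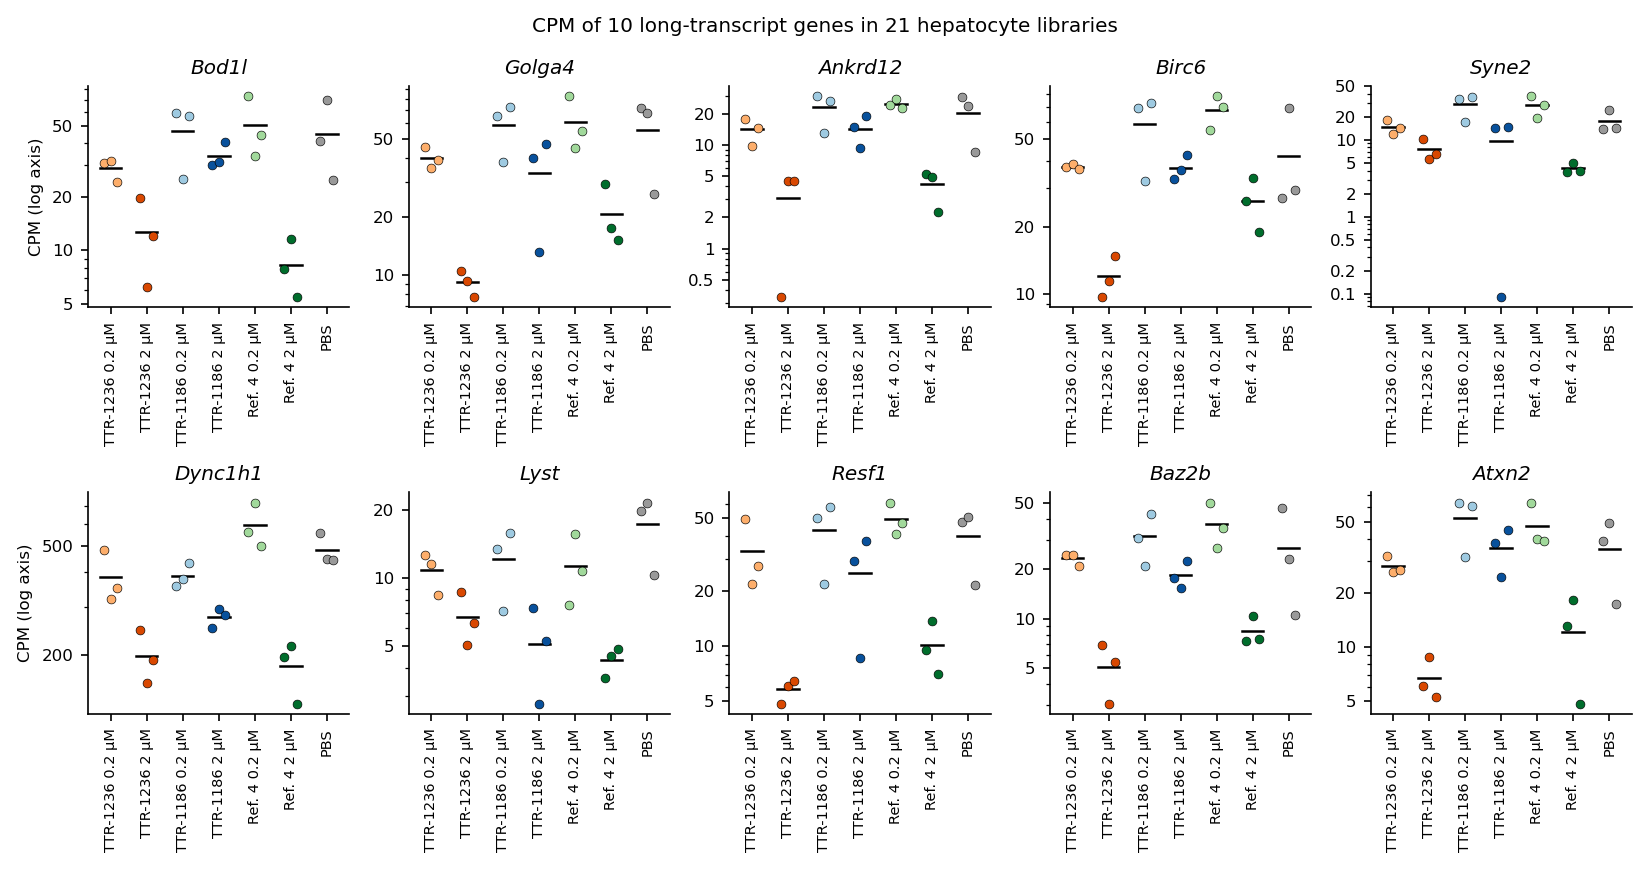
CPM of the 10 genes (log axis, 1 panel per gene) in each of the 21 libraries, by group, with points for libraries and a line at the group mean; PBS is at the right. The TTR-1236 2 µM points lie below all PBS points in every panel, while the TTR-1186 2 µM points overlap PBS in all panels but those of Dync1h1 and Lyst.

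Among the genes of traffic and the cytoskeleton, Golga4 (ENSMUSG00000038708; chr9:118506267-118582519, plus strand, 24 exons) was at 10.6, 9.32 and 7.73 CPM with 2 µM of TTR-1236, at 39.95, 13.2 and 47.0 CPM with 2 µM of TTR-1186, at 29.3, 17.4 and 15.2 CPM with 2 µM of Reference 4, and at 72.1, 67.9 and 26.1 CPM in PBS. The low values within TTR-1186 and within PBS were those of the libraries that stood apart. At 0.2 µM Golga4 was at 45.6, 35.3 and 38.9 CPM with TTR-1236, 65.2, 38.0 and 73.0 CPM with TTR-1186 and 82.7, 44.7 and 54.8 CPM with Reference 4, so that libraries at 0.2 µM overlapped PBS for every agent. Its log2 difference from PBS at 2 µM was -2.34 ± 0.41 for TTR-1236, -0.76 ± 0.41 for TTR-1186 and -1.30 ± 0.41 for Reference 4. Dync1h1 (ENSMUSG00000018707; chr12:110601452-110666945, plus strand, 77 exons) had the narrowest spread in PBS. It was at 245.5, 158 and 192 CPM with 2 µM of TTR-1236, at 250.2, 293 and 280.0 CPM with 2 µM of TTR-1186, at 196, 216 and 132 CPM with 2 µM of Reference 4, and at 559, 447 and 445 CPM in PBS. All 9 libraries at 2 µM lay below all 3 PBS libraries, and PBS replicate 3, low for Golga4, was level with replicate 2 here. The log2 differences were -1.30 ± 0.19 for TTR-1236, -0.81 ± 0.19 for TTR-1186 and -1.43 ± 0.19 for Reference 4. At 0.2 µM Dync1h1 was at 483, 321 and 350.2 CPM with TTR-1236, 356, 380 and 434 CPM with TTR-1186 and 564, 721 and 502 CPM with Reference 4.

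Syne2 (ENSMUSG00000063450; chr12:75818134-76110926, plus strand, 115 exons), the gene with the longest coding sequence of the 10, was at 10.4, 5.68 and 6.65 CPM with 2 µM of TTR-1236, 14.4, 0.0897 and 14.9 CPM with 2 µM of TTR-1186, 3.83, 5.04 and 3.93 CPM with 2 µM of Reference 4, and 14.0, 24.4 and 14.1 CPM in PBS. The TTR-1186 value of 0.0897 CPM rests on 2 reads (exact 95% Poisson interval 0.0109 to 0.324 CPM, for counting error only) and comes from the library with the most genes at 0. At 0.2 µM Syne2 was at 18.4, 12.1 and 14.3 CPM with TTR-1236, 33.9, 17.0 and 35.8 CPM with TTR-1186 and 37.2, 19.4 and 28.4 CPM with Reference 4. The difference from PBS at 2 µM was -1.10 ± 0.66 for TTR-1236, -1.48 ± 0.66 for TTR-1186 and -1.77 ± 0.66 for Reference 4, and that of TTR-1186 was -0.19 without its low library. Lyst (ENSMUSG00000019726; chr13:13590397-13778803, plus strand, 53 exons) was at 8.67, 5.09 and 6.37 CPM with 2 µM of TTR-1236, 7.36, 2.78 and 5.26 CPM with 2 µM of TTR-1186, 3.62, 4.53 and 4.84 CPM with 2 µM of Reference 4, and 19.97, 21.7 and 10.3 CPM in PBS. Each of the 9 libraries was below each PBS library. Its log2 difference was -1.21 ± 0.37 for TTR-1236, -1.59 ± 0.37 for TTR-1186 and -1.72 ± 0.37 for Reference 4, and at 0.2 µM its single libraries ranged from 7.20 to 15.9 CPM.

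Among the genes of chromatin and transcription, Resf1 (ENSMUSG00000032712; chr6:149309414-149335663, plus strand, 5 exons) was at 4.84, 6.09 and 6.46 CPM with 2 µM of TTR-1236, 29.3, 8.66 and 37.6 CPM with 2 µM of TTR-1186, 9.57, 13.7 and 7.05 CPM with 2 µM of Reference 4, and 47.8, 50.6 and 21.6 CPM in PBS. It followed Golga4 closely, with the same low libraries in TTR-1186 and PBS. At 0.2 µM Resf1 was at 49.7, 21.8 and 27.4 CPM with TTR-1236, 50.4, 21.9 and 57.2 CPM with TTR-1186 and 60.9, 41.1 and 47.1 CPM with Reference 4. Its log2 difference from PBS at 2 µM was -2.51 ± 0.45 for TTR-1236, -0.78 ± 0.45 for TTR-1186 and -1.84 ± 0.45 for Reference 4. Ankrd12 (ENSMUSG00000034647; chr17:65965698-66077089, minus strand, 13 exons) was at 0.338, 4.50 and 4.50 CPM with 2 µM of TTR-1236, 15, 9.37 and 19.1 CPM with 2 µM of TTR-1186, 5.32, 4.98 and 2.27 CPM with 2 µM of Reference 4, and 29.5, 23.9 and 8.69 CPM in PBS. The value of 0.338 CPM rests on 6 reads (0.124 to 0.736 CPM). The log2 differences of Ankrd12 were -2.50 ± 0.49 for TTR-1236, -0.38 ± 0.49 for TTR-1186 and -1.96 ± 0.49 for Reference 4. At 0.2 µM it was at 18.1, 9.81 and 14.8 CPM with TTR-1236, 29.9, 13.1 and 26.7 CPM with TTR-1186 and 24.5, 27.9 and 23.1 CPM with Reference 4.

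Bod1l (ENSMUSG00000061755; chr5:41787538-41844315, minus strand, 27 exons) had its lowest mean with 2 µM of Reference 4. At 2 µM it was at 19.6, 6.27 and 12.1 CPM with TTR-1236, 30.0, 31.5 and 40.6 CPM with TTR-1186, 7.82, 11.6 and 5.45 CPM with Reference 4 and 40.8, 69.4 and 24.8 CPM in PBS, so the TTR-1236 and Reference 4 libraries overlapped. Its log2 difference from PBS was -1.76 ± 0.40 for TTR-1236, -0.29 ± 0.40 for TTR-1186 and -2.24 ± 0.40 for Reference 4. At 0.2 µM Bod1l was at 30.9, 31.9 and 24.3 CPM with TTR-1236, 58.6, 25.2 and 56.7 CPM with TTR-1186 and 73.5, 33.7 and 44.5 CPM with Reference 4, so that replicate 2 was far below the others of TTR-1186. Baz2b (ENSMUSG00000026987; chr2:59899363-60209839, minus strand, 35 exons) was at 6.87, 3.05 and 5.43 CPM with 2 µM of TTR-1236, 17.7, 15.3 and 22.2 CPM with 2 µM of TTR-1186, 7.34, 10.4 and 7.52 CPM with 2 µM of Reference 4, and 46.9, 23.0 and 10.4 CPM in PBS. Its PBS libraries spread more than those of any of the other 9 genes, with an SD of 69.2% of the mean. Its log2 difference was -2.001 ± 0.38 for TTR-1236, -0.30 ± 0.38 for TTR-1186 and -1.34 ± 0.38 for Reference 4. At 0.2 µM it was at 24.4, 24.2 and 20.9 CPM with TTR-1236, 30.6, 20.9 and 42.8 CPM with TTR-1186 and 50.4, 26.7 and 35.3 CPM with Reference 4, all inside or just above the PBS range.

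Of the remaining genes, which act on RNA and on protein turnover, Atxn2 (ENSMUSG00000042605; chr5:121711337-121816493, plus strand, 25 exons) was at 6.08, 8.72 and 5.24 CPM with 2 µM of TTR-1236, 38.0, 24.6 and 44.6 CPM with 2 µM of TTR-1186, 13.1, 18.3 and 4.81 CPM with 2 µM of Reference 4, and 38.8, 49.3 and 17.4 CPM in PBS. With TTR-1186 it was level with PBS, at a log2 difference of 0.10 (95% interval -0.72 to 0.92), against -2.14 ± 0.40 with TTR-1236 and -1.51 ± 0.40 with Reference 4. At 0.2 µM Atxn2 was at 32.2, 26.2 and 26.8 CPM with TTR-1236, 63.8, 31.6 and 61.1 CPM with TTR-1186 and 63.1, 40.1 and 39.0 CPM with Reference 4. Birc6 (ENSMUSG00000024073; chr17:74528295-74703356, plus strand, 73 exons) was at 9.63, 11.4 and 14.9 CPM with 2 µM of TTR-1236, 33.0, 36.2 and 42.5 CPM with 2 µM of TTR-1186, 26.2, 33.4 and 19.1 CPM with 2 µM of Reference 4, and 27.1, 69.7 and 29.5 CPM in PBS. The TTR-1236 libraries were the only ones wholly below PBS, and the log2 differences were -1.62 ± 0.31 for TTR-1236, -0.05 ± 0.31 for TTR-1186 and -0.56 ± 0.31 for Reference 4. At 0.2 µM Birc6 was at 37.5, 38.7 and 36.9 CPM with TTR-1236, 69.7, 32.5 and 73.4 CPM with TTR-1186 and 55.4, 78.7 and 70.1 CPM with Reference 4, every Reference 4 library being above every TTR-1236 library.

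The calls at 2 µM leaned on single libraries. For TTR-1236 8 of 10 genes passed, but 5 without PBS replicate 1 and 4 without PBS replicate 2, where the calls over all genes were 12 higher and 37 lower, and 14 higher and 32 lower, against 139 and 472 with all libraries (222 and 422 with DESeq2 size factors). For Reference 4 the 6 became 1 without PBS replicate 1, PBS replicate 2 or Reference 4 2 µM replicate 3, and 2 without Reference 4 2 µM replicate 1. The calls over all genes went the same way, with 6, 9, 8 and 55 genes lower in these 4 fits against 160 with all libraries. With the replicate number as a block 7 genes passed for Reference 4, Golga4 joining the 6, and 218 of all genes were lower. Without both libraries that stood apart, 10 of 10 genes passed for TTR-1236, 9 for Reference 4 and 0 for TTR-1186, where 1430, 1136 and 5 of the 9657 genes were lower.

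The lower dose gave no such separation from PBS. At 0.2 µM 0 of 10 genes passed against PBS for each agent in limma, edgeR and DESeq2, and 1 of 10, for Reference 4, was under an unadjusted p of 0.05 in limma, with 0.0207% of all genes called lower for TTR-1236, 0.0311% for TTR-1186 and 0.135% for Reference 4. The median log2 difference of the 10 genes was -0.30 for TTR-1236 (9 negative), 0.20 for TTR-1186 (2 negative) and 0.40 for Reference 4 (1 negative). With the share of mitochondrial ribosomal RNA, described below, as a covariate it was -0.14 (8 negative), -0.05 (5 negative) and 0.18 (2 negative), so the direction for TTR-1186 turned. Every library lay below every PBS library for 0 of 10 genes with TTR-1236 (5.41% of all genes), for Dync1h1 with TTR-1186 (9.6%) and for 0 with Reference 4 (10.5%). These 3 comparisons also share the PBS libraries. Over the 7 groups, the highest mean belonged to Reference 4 at 0.2 µM for 7 genes, to TTR-1186 at 0.2 µM for Syne2 and Atxn2, and to PBS for Lyst. The lowest belonged to TTR-1236 at 2 µM for 6 genes and to Reference 4 at 2 µM for Bod1l, Syne2, Dync1h1 and Lyst. Most neighbours in that order could not be separated: of 60 neighbouring pairs of group means, 12 had libraries that did not overlap. The same counts over all genes are not given here, so these orders only describe the 10 genes.

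Within an agent, the step in dose was as follows, again as a description. At 2 µM of Reference 4 against 0.2 µM of Reference 4, all 10 genes passed as lower (6.05% of all genes passed as lower and 6.78% as higher), with a median log2 difference of -2.01, and every library was lower for all 10 (16.8%). At 2 µM of TTR-1236 against 0.2 µM of TTR-1236, 6 of 10 passed (0.135% of all genes), namely Golga4, Birc6, Dync1h1, Resf1, Baz2b and Atxn2, with a median of -1.78, and every library was lower for all but Lyst (14.9%). For TTR-1186 the median was -0.66, 0 of 10 passed in limma (0% of all genes) with 4 under an unadjusted p of 0.05, and every library was lower for Syne2 and Dync1h1 (6.5%). In 3 pairs of agents 0 of the 10 genes and 0% of all genes passed for the difference of the steps in limma. Unadjusted 95% intervals are given as descriptions, since the libraries at 2 µM chose the genes. The step of TTR-1236 was smaller than that of Reference 4 by 0.77 (0.21 to 1.34) for Dync1h1. The interval of Bod1l also lay above 0, and those of the other genes included 0. The step of TTR-1186 was smaller than that of Reference 4 by 1.22 (0.65 to 1.79) for Dync1h1 and 2.08 (0.92 to 3.25) for Bod1l. In that pair the intervals of Ankrd12, Resf1, Baz2b and Atxn2 also lay above 0, and those of Golga4, Birc6, Syne2 and Lyst included 0. The step of TTR-1236 was larger than that of TTR-1186 for Ankrd12, Birc6, Resf1, Baz2b and Atxn2, with intervals that excluded 0. Those of Bod1l, Golga4, Syne2, Dync1h1 and Lyst included 0.

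The agents were compared with one another at 0.2 µM over 3 pairs, which use no library at 2 µM and none of PBS. The choice of the genes would still have used these libraries if the fall was read against 0.2 µM. For TTR-1236 against Reference 4, 0 of 10 genes and 0% of all genes passed in limma, at adjusted p between 0.121 and 0.987 for the 10. All 10 log2 differences were negative, with a median of -0.67 (-0.86 to -0.02) against 0.05 over all genes. In 7 of them all TTR-1236 libraries lay below all Reference 4 libraries, which 9.19% of all genes did. The smallest adjusted p was that of Dync1h1, at -0.64 ± 0.19 (95% interval -1.04 to -0.24), followed by Birc6 at -0.82 ± 0.31 (-1.47 to -0.17, limma adjusted p = 0.215). Both passed when only the 6 libraries compared were fitted (limma adjusted p = 0.0326 for Dync1h1 and 0.0157 for Birc6), a fit that called 326 of all genes higher and 173 lower. DESeq2 on the recovered reads called Dync1h1 (log2 difference -0.70, adjusted p = 0.0457), with 203 of all genes higher and 35 lower, and edgeR called 0 of the 10. At an unadjusted p under 0.05 limma held 2 of the 10 genes and 1351 of all genes.

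The other pairs at 0.2 µM were flatter. For TTR-1186 against Reference 4 the median log2 difference of the 10 genes was -0.16 (-0.60 to 0.11), 7 were negative, and 0 of 10 and 0% of all genes passed (adjusted p 0.942 to 0.999 in limma). Dync1h1 (-0.60 ± 0.19) was the only one of the 10 under an unadjusted p of 0.05, as 475 of all genes were, and the only one with every TTR-1186 library lower (4.73% of all genes). For TTR-1236 against TTR-1186 all 10 were negative with a median of -0.52 (-0.86 to -0.04), and again 0 of 10 and 0% of all genes passed (0.698 to 0.987). At an unadjusted p under 0.05 there were 0 of the 10 and 685 of all genes, and in 0 of the 10 did the libraries part (4.95% of all genes lay wholly lower). edgeR and DESeq2 called 0 of the 10 in both pairs. The 95% intervals of the 10 genes reached from -2.25 to 0.67 for TTR-1236 against TTR-1186 and from -1.38 to 1.39 for TTR-1186 against Reference 4, so the intervals include differences of more than 2-fold and the agents are not shown to act alike. At 2 µM, where the genes were chosen and the agents are only described, the median log2 difference was -1.58 for TTR-1236 against TTR-1186, 0.83 for TTR-1186 against Reference 4 and -0.58 for TTR-1236 against Reference 4. TTR-1236 and TTR-1186 libraries at 2 µM did not overlap for 8 genes, all lower with TTR-1236 (11.1% of all genes were), and overlapped for Syne2 and Lyst. Of the 8, Birc6 and Atxn2 passed as lower (0.249% of all genes, with 0.0932% higher). TTR-1186 libraries lay wholly above those of Reference 4 for 5 genes (9.81% of all genes) and below for 0 (8.53%), and Bod1l passed as higher (0.228%, with 0.145% lower). TTR-1236 libraries lay wholly below those of Reference 4 for Golga4, Birc6, Resf1 and Baz2b (5.16% of all genes) and wholly above them for Syne2 and Lyst (3.5%).

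The share of CPM in mt-Rnr1 plus mt-Rnr2 moved along with these levels. It was 1.73%, 1.47% and 1.72% with 0.2 µM of TTR-1236 and 0.487%, 0.471% and 0.278% with 2 µM of TTR-1236. With TTR-1186 it was 3.73%, 1.49% and 3.12% at 0.2 µM and 1.95%, 0.622% and 2.21% at 2 µM. With Reference 4 it was 3.50%, 2.46% and 2.13% at 0.2 µM and 1.10%, 0.819% and 0.383% at 2 µM, and in PBS it was 3.26%, 2.70% and 0.797%. The groups with the lowest share, TTR-1236 and Reference 4 at 2 µM, were those that held the lowest mean of each of the 10 genes. Within groups the library with the lowest share was also the lowest library for 8 of 10 genes in PBS (46.4% of all genes), 7 in TTR-1186 at 2 µM (45.7%), 9 in TTR-1186 at 0.2 µM (50%) and 7 in Reference 4 at 2 µM (32.7%). It was so for 6 in TTR-1236 at 0.2 µM (29.6%), 3 in Reference 4 at 0.2 µM (34.4%) and 2 in TTR-1236 at 2 µM (33.6%). Over the 7 groups that is 42 of 70 gene and group pairs, against 38.9% for all genes. Mitochondrial mRNAs took 1.999 ± 0.449% of CPM with 2 µM of TTR-1236 and 1.89 ± 0.220% in PBS (SD, n = 3 each).

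**Figure D2:**
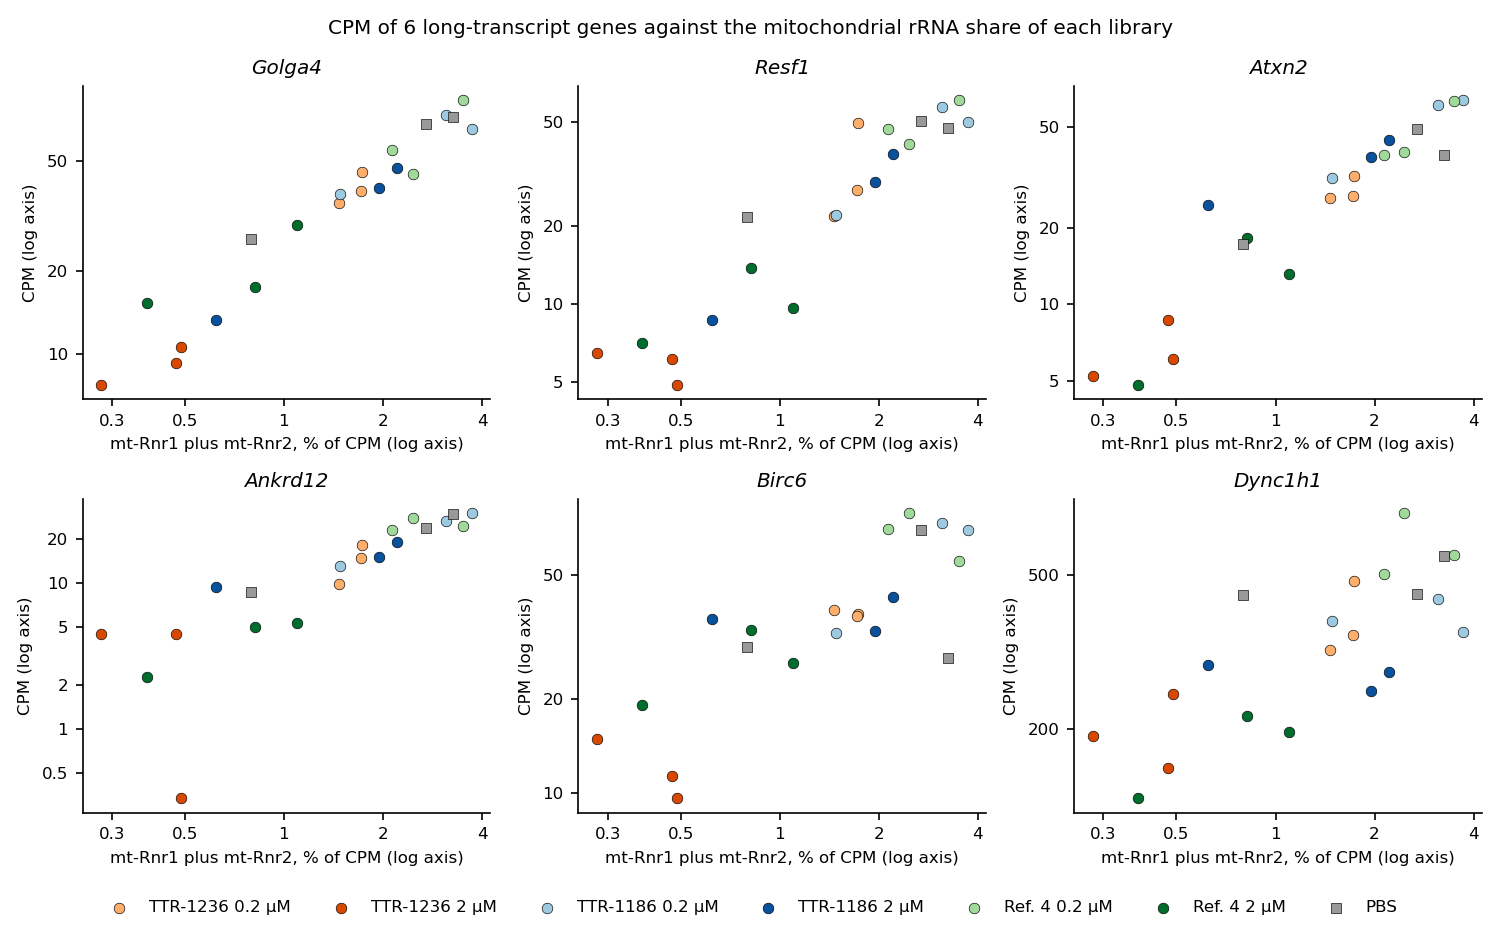
CPM of Golga4, Resf1, Atxn2, Ankrd12, Birc6 and Dync1h1 against the percent of CPM in mt-Rnr1 plus mt-Rnr2, both on log axes, 1 point per library in the colour of its group and with squares for PBS. Taken over the groups, Golga4, Resf1 and Atxn2 run upward with the share inside groups, and Dync1h1 does so least, with a slope of 0.10. The upward run is not seen inside every group: Resf1 goes the other way in TTR-1236 at 2 µM.

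A slope on that share was then fitted beside the 7 group means, so that it rests on differences between libraries of 1 group, which the choice of the genes by group means did not use. Earlier results had already shown mt-Rnr2 to be low in the same groups, and the share was picked with them known. It is the log2 difference in CPM for each doubling of the share, and mt-Rnr1 and mt-Rnr2 were left out, leaving 9655 genes. All 10 slopes were positive, with a median of 0.50 against 0.04 over all genes, and 6 of 10 passed as positive, against 11.1% of all genes. Golga4 had 0.74 ± 0.09 (95% interval 0.54 to 0.93, limma adjusted p = 5.34e-06), Atxn2 0.67 ± 0.11 (adjusted p = 0.000147) and Resf1 0.70 ± 0.13 (adjusted p = 0.000503). These 3 passed in all 21 fits that left out 1 library. Syne2 had 0.82 ± 0.22 (limma adjusted p = 0.0163), but 0.29 (adjusted p = 0.270) without TTR-1186 2 µM replicate 2, the library with 2 Syne2 reads. Baz2b (0.45 ± 0.14, adjusted p = 0.0386) passed in 14 of 21 such fits and Ankrd12 (0.55 ± 0.18, adjusted p = 0.0460) in 3. Both lay close under the threshold. Their slopes in these fits ran from 0.27 to 0.54 for Baz2b and from 0.44 to 0.66 for Ankrd12. The call of Ankrd12 was lost by leaving out libraries of each of the 7 groups, so it did not depend on particular libraries. Of those that did not pass, Bod1l had 0.43 ± 0.15 (limma adjusted p = 0.0619), Lyst 0.34 ± 0.15 (0.170), Birc6 0.21 ± 0.13 (0.355) and Dync1h1 0.10 ± 0.08 (0.493, 95% interval -0.07 to 0.27).

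Without both libraries that stood apart the count fell to 2, Atxn2 (0.83, limma adjusted p = 0.00822) and Golga4 (0.60, adjusted p = 0.0198), and Resf1 stood at 0.54 (adjusted p = 0.203). The same slope was fitted in the 9 libraries at 0.2 µM alone. The choice of the genes may have used their group means, but the slope rests on differences within groups. With CPM as deposited all 10 slopes were again positive, though that of Dync1h1 turned to -0.03 with TMM factors, with a median of 0.75 against 0.10 over all genes, and 4 of 10 passed, against 6.07% of all genes. These were Atxn2 (0.83 ± 0.19, limma adjusted p = 0.0126), Bod1l (0.95 ± 0.22, adjusted p = 0.0167), Resf1 (0.98 ± 0.25, adjusted p = 0.0246) and Golga4 (0.74 ± 0.19, adjusted p = 0.0276). That count rested on few libraries: it was 0 without TTR-1186 0.2 µM replicate 1 or replicate 2, and 1 without TTR-1186 0.2 µM replicate 3 or Reference 4 0.2 µM replicate 1. With the replicate number as a block it was 0, with 13 of all genes positive against 586. In fits without 1 library the slopes stayed at 0.82 to 1.03 for Bod1l, 0.63 to 0.91 for Golga4, 0.77 to 1.145 for Resf1 and 0.77 to 0.91 for Atxn2. The calls over all genes are not given here for the fits without 1 or both libraries. A loss of calls in all genes therefore cannot be told apart from a loss in the 10. Dync1h1, at 0.06 ± 0.17 (95% interval -0.30 to 0.42), had the smallest slope here too.

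**Figure D3:**
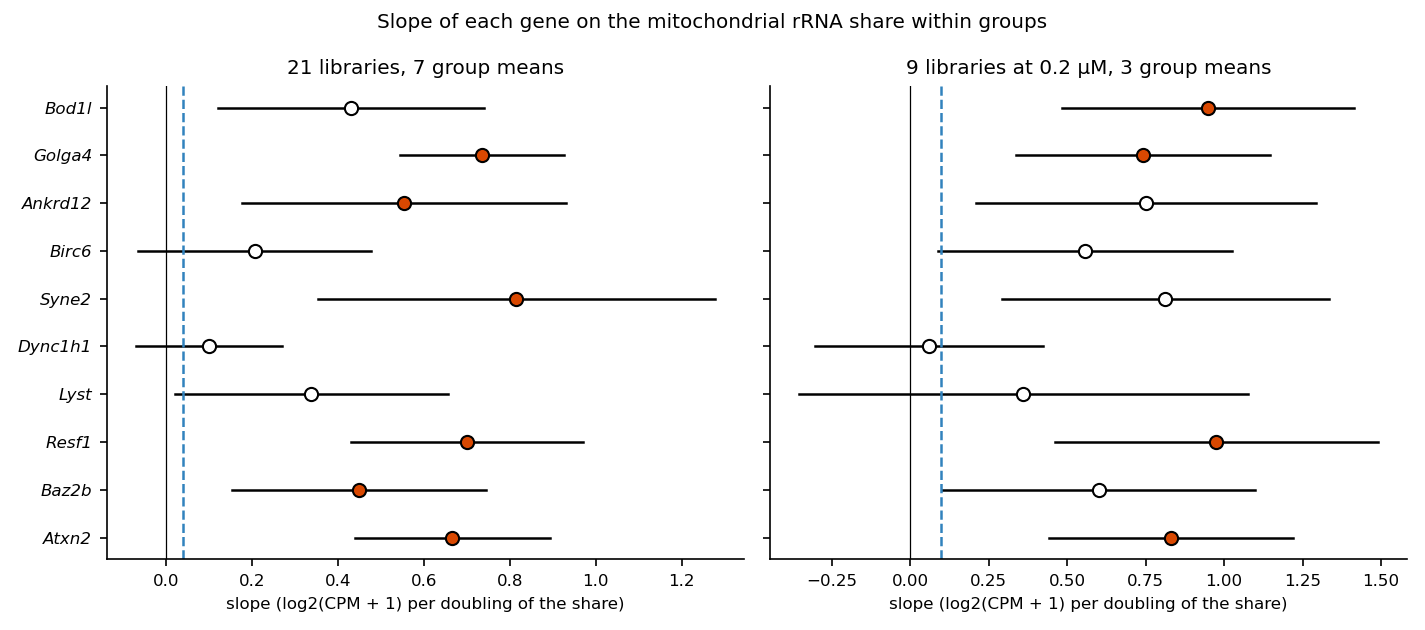
Slope of each of the 10 genes on the mitochondrial ribosomal RNA share (log2 CPM per doubling of the share) with its 95% interval, fitted within 7 groups over 21 libraries and within the 3 groups at 0.2 µM over 9 libraries; filled points had an adjusted p under 0.05 and the dashed line is the median of all genes. With CPM as deposited all points lie right of 0 (with TMM factors Dync1h1 at 0.2 µM does not), with 6 filled in the first fit and 4 in the second.

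With the share as a covariate, the differences from PBS at 2 µM were smaller. For TTR-1236 the median of the 10 genes was -0.86, against -1.88 without it, and 0 of 10 passed (0.0311% of all genes), where 8 had. For Reference 4 the median was -0.76, against -1.62 without it, and 1 passed, Dync1h1 (0.0828% of all genes), where 6 had. For TTR-1186 it was -0.27, against -0.57 without it, and 0 passed (0.0621% of all genes). Dync1h1 moved least, at -1.07 ± 0.26 with the covariate and -1.30 ± 0.19 without it for TTR-1236, and at -1.29 ± 0.22 and -1.43 ± 0.19 for Reference 4. Golga4 for TTR-1236 stood at -0.68 ± 0.29 with the covariate and -2.34 ± 0.41 without it, and Resf1 at -0.93 ± 0.41 and -2.51 ± 0.45. Syne2 stood on the other side of 0 for TTR-1236, at 0.74 (95% interval -0.72 to 2.21). Over all genes the calls for TTR-1236 were 1 higher and 3 lower with the covariate, against 139 higher and 472 lower without it. Between groups the share differs with the agent and dose, so share and agent cannot be told apart in this comparison.

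**Figure D4:**
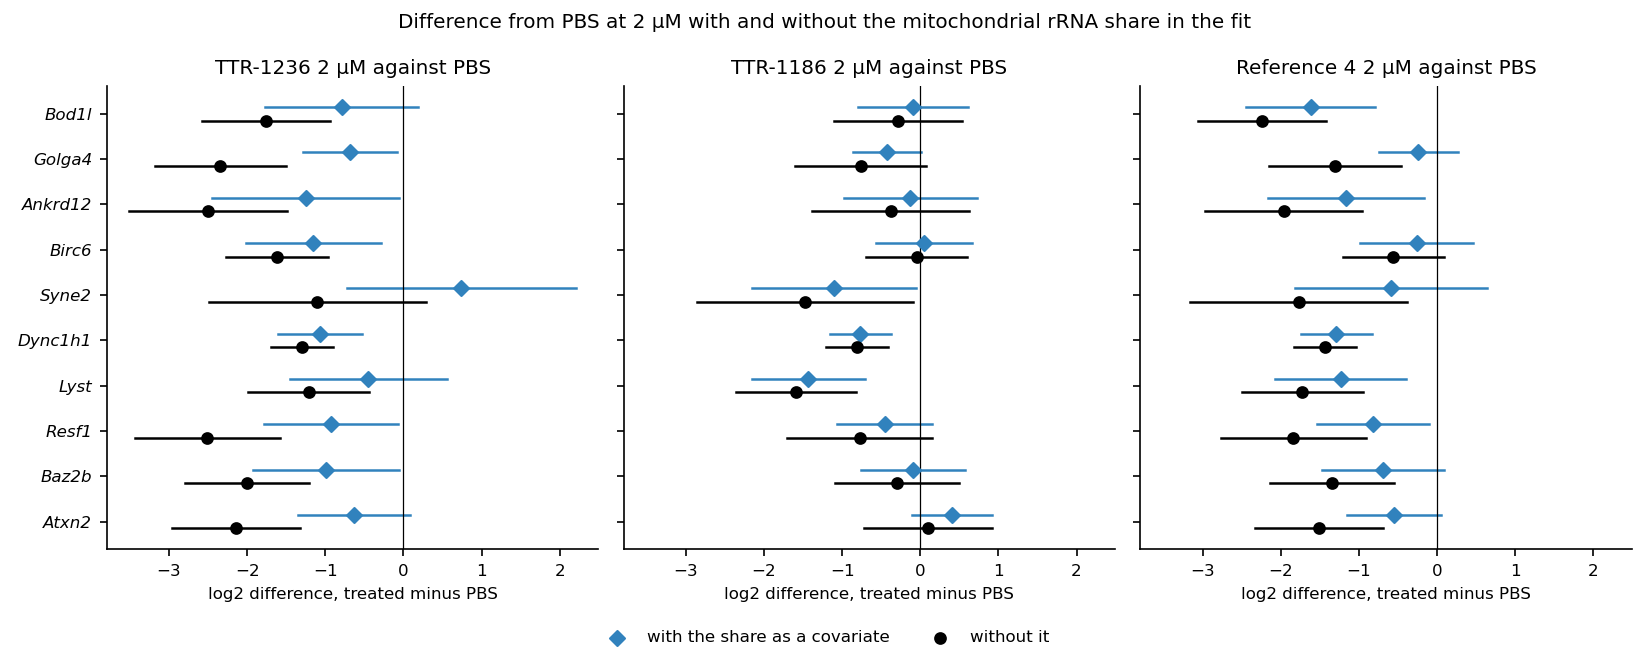
Log2 difference from PBS at 2 µM for each of the 10 genes and 3 agents, with 95% intervals, in blue with the mitochondrial ribosomal RNA share as a covariate and in black without it. Blue points lie nearer 0 than black ones for most genes under TTR-1236 and Reference 4, and the pair for Dync1h1 lies closest together.

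The difference was graded over the 8553 protein coding genes with an annotated coding sequence. Sorted into deciles by coding length, the median log2 difference between 2 µM of TTR-1236 and PBS was 0.14 in the shortest decile and -0.51 in the longest, which holds all 10 genes, and 1.17% and 14.7% of the genes were called lower. The median slope within groups was -0.04 in the shortest decile and 0.21 in the longest. Sorted by 3′UTR length, the same difference was 0.13 in the shortest decile and -0.33 in the longest. Genes in the top decile for coding length but not for 3′UTR length (744 genes, 9 of the 10 among them) had a median of -0.50. Those long only in the 3′UTR (743 genes) had -0.29, those long in both (113 genes, with Ankrd12) -0.70 and those long in neither (6953 genes) -0.01. Sorted by the percent of A in the coding sequence, the median slope was -0.05 in the lowest decile and 0.27 in the highest, which holds 5 of the 10 genes, and 1.17% and 35.2% of the genes had a positive slope that passed. Among the 10 genes, Atxn2 (23.6% A) had a slope within groups of 0.67 and Dync1h1 (25.7% A) 0.10. These are descriptions over genes that share libraries and features, and no test was run on them.

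**Figure D5:**
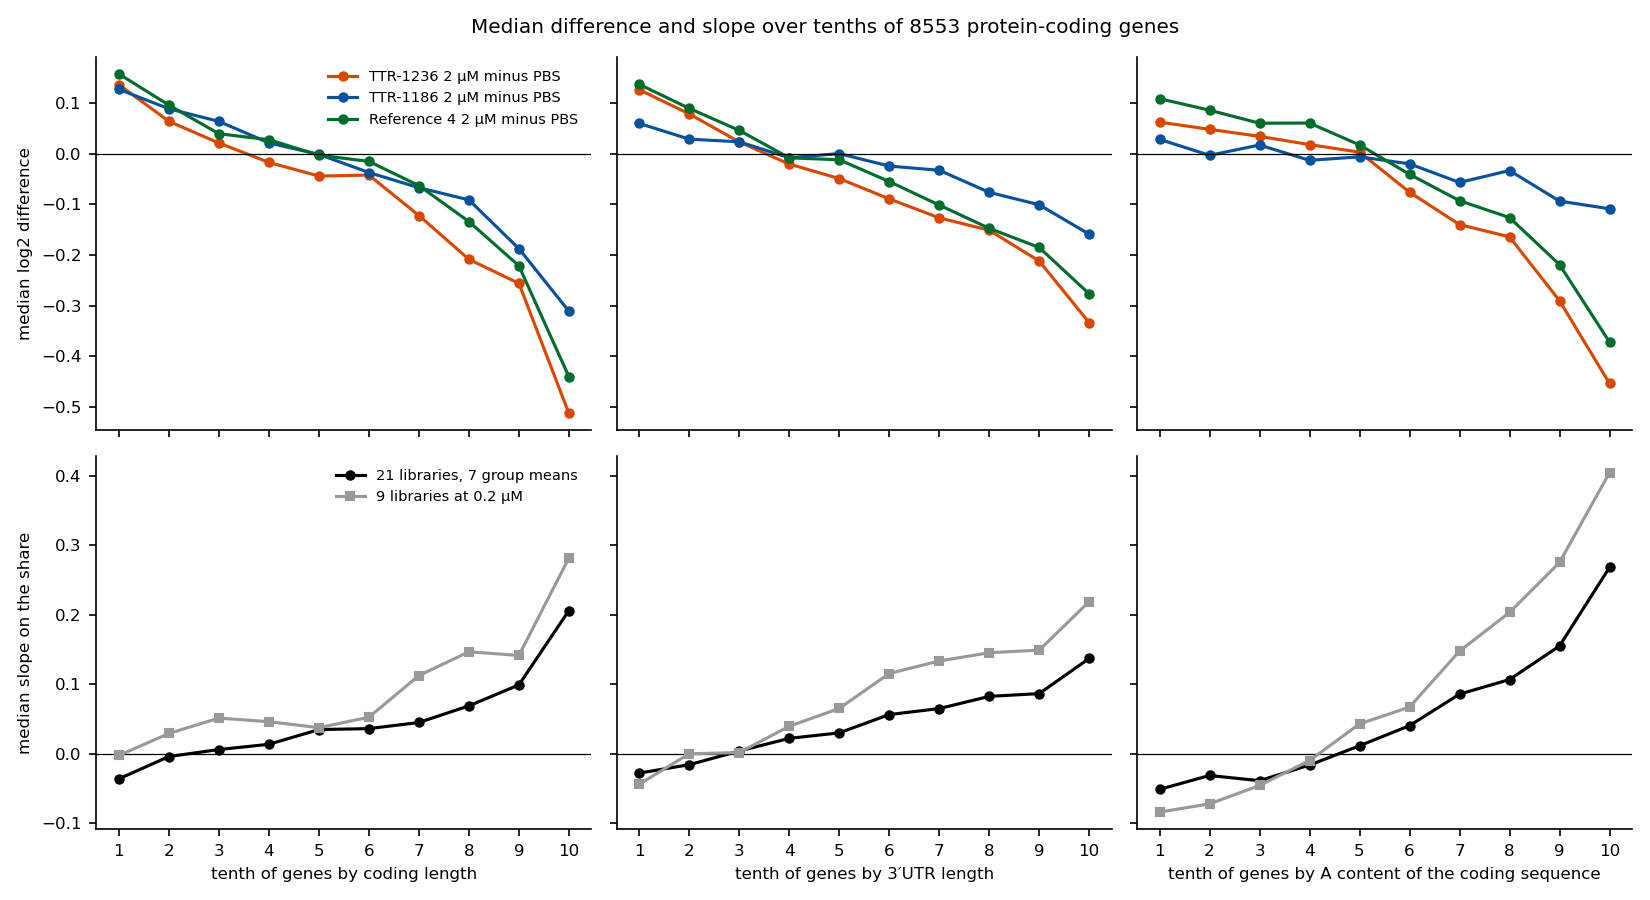
Medians over deciles of 8553 protein coding genes, sorted by coding length, 3′UTR length and percent A of the coding sequence: the top row shows the log2 difference from PBS at 2 µM for the 3 agents and the bottom row the slopes on the mitochondrial ribosomal RNA share. Differences go down and slopes go up toward the right in all 3 sortings, and the slope is highest, at 0.27 within groups, in the decile richest in A.

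Other genes with very long mRNAs, in a list that was drawn up with earlier results known, lay on the same side. Of 62 listed 59 were measured. At 2 µM of TTR-1236 22 fell (4.89% of all genes did), 0 rose and all 59 had a negative log2 difference from PBS, with a median of -0.90 against -0.07 over all genes. For Reference 4 at 2 µM 4 fell (median -0.81, 1.66% of all genes) and for TTR-1186 0 (median -0.45, 0.0414% of all genes). Apob, which encodes the backbone protein of the lipoproteins secreted by liver, was at 35.6 ± 15.2 CPM with TTR-1236 and 218 ± 101 CPM in PBS (SD, n = 3 each; log2 difference -2.53 ± 0.44, limma adjusted p = 0.00633). Usp9x, a deubiquitinase, was at 34.3 ± 2.41 and 76.5 ± 12.1 CPM (-1.12 ± 0.19, adjusted p = 0.00420). Plec, the cytoskeletal linker plectin, was at 95.5 ± 25 and 174 ± 27.2 CPM (-0.88 ± 0.19, adjusted p = 0.0131). A positive slope passed in 35 of the 59 (11.1% of all genes), with 0.74 ± 0.09 for Apob, while Usp9x (0.07 ± 0.08) and Plec (-0.01 ± 0.08) had slopes near 0, like Dync1h1.

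The partners of the 10 genes in their own complexes and pathways were followed in 10 further lists at 2 µM of TTR-1236 against PBS, with limma adjusted p over all genes. Their counts stand against 4.89% of all genes called lower and 1.44% called higher. Of 22 dynein and dynactin subunits besides Dync1h1 0 passed (0 at an unadjusted p under 0.05), with a median log2 difference of -0.03 against -0.07 over all genes, and Dynlt1a had the smallest adjusted p (0.255). Of 12 nuclear envelope genes besides Syne2 0 passed (2 unadjusted; smallest p for Emd at 0.33, adjusted p = 0.0898). Golgins and trans-Golgi tethers had 2 of 13 fallen, both large coiled-coil tethers, Golgb1 (9.68 ± 1.91 CPM with TTR-1236, 37.8 ± 25.1 CPM in PBS, -1.61 ± 0.44, adjusted p = 0.0341) and Gcc2 (-1.82 ± 0.51, adjusted p = 0.0416). In the BEACH domain and lysosome list, which goes with Lyst, 1 of 11 fell, Nbeal1 (-1.21 ± 0.36, adjusted p = 0.0479), and 1 rose, Hps4, a subunit of a complex for lysosome-related organelles (6.95 ± 3.56 CPM with TTR-1236, 1.55 ± 1.34 CPM in PBS, 1.73 ± 0.48, adjusted p = 0.0350).

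Among chromatin lists, 3 of 10 remodelling and BAZ family genes fell, namely Baz1b (-1.07 ± 0.27, limma adjusted p = 0.0242), Bptf (-1 ± 0.28, adjusted p = 0.0341) and Baz1a (-1.06 ± 0.30, adjusted p = 0.0389). In the SETDB1 and heterochromatin list 1 of 12 fell, Cbx5, the heterochromatin protein HP1 alpha (-0.96 ± 0.29, adjusted p = 0.0481). Of 14 nuclear receptor coregulators 2 fell, Tbl1x (-0.88 ± 0.24, adjusted p = 0.0313) and Nrip1 (-1.28 ± 0.38, adjusted p = 0.0479), and 0 of 16 SET1 and KMT2 complex genes passed (5 unadjusted; smallest p for Kdm6a at -1.24, adjusted p = 0.0792). Of 13 genes around the inhibitors of apoptosis 1 fell, Birc2 (-1.58 ± 0.45, adjusted p = 0.0368). Of 15 partners of ataxin-2 2 fell, the poly(A)-binding protein gene Pabpc1 (304 ± 50.1 CPM with TTR-1236, 983 ± 396 CPM in PBS, -1.61 ± 0.30, adjusted p = 0.00909) and the helicase gene Ddx6 (-0.95 ± 0.23, adjusted p = 0.0190). As a contrast of short mRNAs, 3 of 40 cytosolic ribosomal protein genes rose, Rpl10, Rpl12 and Rps18, by log2 differences of 0.49 to 0.53, and 0 fell. Of 13 mitochondrially encoded mRNAs 0 passed (2 unadjusted; smallest p for mt-Nd5 at -0.85, adjusted p = 0.0921). Of 14 hepatocyte markers 3 rose, Apoc3 (0.78 ± 0.17, adjusted p = 0.0141), Serpina1d (0.83 ± 0.18, adjusted p = 0.0157) and Rbp4 (0.40 ± 0.11, adjusted p = 0.0386), and 0 fell. A positive slope on the share passed in 6 of 10 remodelling genes, 4 of 13 golgins and tethers and 3 each of the lists around Lyst, Ankrd12, Birc6 and Atxn2. It passed in 2 each of those around Dync1h1, Bod1l and Resf1, in 0 of 12 nuclear envelope genes and in 0 of 40 ribosomal protein genes, against 11.1% of all genes. These calls at 2 µM rest on the same PBS libraries, without 1 of which (replicate 1 or 2) few genes of any kind passed for TTR-1236.

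The 10 genes were chosen for a shared fall at the higher dose, so their varying together over all libraries follows in part from that choice. Over the 21 libraries Pearson's r of log2(CPM + 1) was above 0 in all 45 pairs, with a median of 0.789, from 0.484 for Birc6 and Lyst to 0.955 for Golga4 and Resf1. Between deviations from the group means it was above 0 in 44 of 45 pairs, with a median of 0.476, the exception being Syne2 and Dync1h1 at -0.02. Among 6449 protein coding genes averaging 10 CPM or more, those most like the mean course of the 10 were Apob (r = 0.976), Phf3, a transcription regulator (0.966), the initiation factor gene Eif4g1 (0.962), the bicarbonate transporter gene Slc4a4 (0.956), the poly(A) polymerase gene Tent4b (0.956) and Eif3a (0.955). Least like it were Ddt (-0.906), Emd (-0.904), Chchd10 (-0.898) and the proteasome subunit gene Psmb8 (-0.897), all with coding sequences of 357 to 831 bases. Those most like it had coding sequences from 2043 bases in Tent4b and 3240 in Slc4a4 to 13518 in Apob. All points of these correlations share libraries and depth, and they are given as descriptions. No r for pairs of other genes is given here, so whether the 10 genes vary together more than other genes was not tested. The ranking by likeness rests on the mean course of the same chosen genes.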

How the data were processed

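The files hold CPM scaled by the authors: each of 21 libraries sums to 1000000 over the same 9657 genes, and the deposited values were whole reads within 0.001 reads in 100% of cases. The submitters' processing notes name mm10 as the build, with HISAT2 2.1.0, cutadapt 1.15 and featureCounts as tools. Settings, strand and annotation release: not given in the sources used here. Without a stated strand setting, reads of overlapping genes cannot be told apart, and 0 of the 10 genes overlap another gene in the files. Genes absent from the files do overlap some of them. One, the protein coding Sh2b3, lies on the opposite strand over the 3′ end of Atxn2. Whether its reads touched the counts of Atxn2 was not tested. Coding sequences came from the longest protein coding transcript in GENCODE M21.

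limma 3.58.1 in R 4.3.3 was fitted on log2(CPM + 1) with 7 group means and a trended, robust variance prior. P-values were adjusted after Benjamini and Hochberg across all genes, at a threshold of 0.05. The slope fits added log2 of the percent of CPM in mt-Rnr1 plus mt-Rnr2. The 10 genes and all gene lists were chosen with earlier results of these data known. Per list, up to 3 called genes with the smallest p were named. Likeness was r with the mean standardised course of the 10 genes. Alternatives were edgeR 4.0.16 and DESeq2 1.42.0 on recovered reads, TMM and DESeq2 size factors, a filter at a mean of 10 CPM, pseudocounts of 0.5 and 5, fits on the libraries compared, a replicate block, and single libraries left out. Leaving out both libraries that stood apart was added after seeing the data. Same-numbered libraries had r over 0.1 between their deviations from the group means in 18 of 63 pairs (median 0.018). All 3 pairs did so in 2 of 21 pairs of groups, Reference 4 at 2 µM with PBS and TTR-1236 with Reference 4 at 2 µM, a hint from the data, since the labels give no shared animal or day. Replicates of a group differed beyond sampling noise, by a chi-square of at least 25.1 for each degree of freedom. On simulated data over 9657 genes, the comparison of TTR-1236 at 2 µM with PBS recovered 56% of 2-fold and 100% of 4-fold changes. The slope within groups recovered 79% of slopes of 0.5 and 100% of slopes of 1, and the slope at 0.2 µM 1% and 31%. Unchanged genes called numbered 9, 13 and 1 in these 3 fits. The simulated libraries were independent, had the same set spread for every gene and held no library that stood apart. Recovery in the real libraries may therefore be lower.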

Additional observations from a re-analysis of the deposited data

How the results depend on the processing

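Of the 10 genes, the number called lower than PBS at 2 µM of TTR-1236 (8) was 0 with the share covariate, 3 with only the libraries compared and 4 to 9 with 1 library left out. Of all genes, 472 were lower in the main fit, 3 with the covariate and 21 with only the libraries compared. With 1 library left out, 32 to 1205 were. For Reference 4 at 2 µM the main fit called 6 of the 10 and 160 of all genes lower. These counts became 1 and 8 with the covariate and 2 and 31 with only the libraries compared. With 1 library left out they were 1 to 8 of the 10 and 6 to 910 of all genes. For TTR-1186 at 2 µM (0, with 4 of all genes lower) DESeq2 gave 1, Lyst (14 of all genes), and fits without 1 library 0 to 1 (1 to 20 of all genes). For TTR-1236 against Reference 4 at 0.2 µM (0) DESeq2 gave 1 (203 of all genes higher and 35 lower) and only the libraries compared 2 (326 and 173). Positive slopes within groups (6, with 1071 of all genes) were 3 in edgeR (787 of all genes). They were 2 without both libraries that stood apart and 4 to 7 without 1 library (all-gene counts not given here). In the 0.2 µM libraries (4) they were 0 with the replicate block, whose all-gene count is given above, and 0 to 5 without 1 library. With the block, 8 and 7 genes were called lower for TTR-1236 and Reference 4 at 2 µM, 0 for TTR-1186, 5 had a positive slope within groups and 0 differed between agents at 0.2 µM. Of all genes, the block called 513, 218 and 3 lower in these comparisons with PBS. It called 891 positive slopes and 0 differences between agents.

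Against PBS, 49 of 1014 values of the 10 genes under alternatives had the other sign, 40 of them at 0.2 µM, and 11 without PBS replicate 3. Without it Baz2b stood at -0.49 and not 0.03 for TTR-1236 and -0.12 and not 0.40 for TTR-1186 at 0.2 µM. Without PBS replicate 1 Baz2b stood at 0.21 and not -0.30 for TTR-1186 at 2 µM. Without PBS replicate 2 Birc6 stood at 0.40 and not -0.02 for TTR-1236 at 0.2 µM, and 0.38 and not -0.05 for TTR-1186 at 2 µM. In the tested comparisons, Lyst for TTR-1236 against Reference 4 at 0.2 µM stood at 0.21 with the share covariate and between -0.26 and 0.22 without 1 library (0.13 without TTR-1236 0.2 µM replicate 3, 0.22 without Reference 4 0.2 µM replicate 2). In the 0.2 µM slopes, fits without 1 library ran from -0.50 to 0.85 for Birc6 and from -0.82 to 0.72 for Lyst, both lowest without TTR-1186 0.2 µM replicate 2 and highest without Reference 4 0.2 µM replicate 1. Dync1h1 stood there at -0.053 in DESeq2, -0.027 with TMM factors, -0.014 with DESeq2 size factors and from -0.025, without Reference 4 0.2 µM replicate 3, to 0.20 in fits without 1 library. Gcc2 at 2 µM of TTR-1236 stood at 0.064 with the share covariate. The cause was not tested. For single genes 1775 values kept their direction and side of the threshold or, where untested, stayed within 1 SD, 195 lost a call, 13 gained one, and 50 untested values moved by over 1 SD.

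Over all genes at 2 µM of TTR-1236, 139 rose and 472 fell with CPM as deposited, 191 and 440 with TMM factors, 222 and 422 with DESeq2 size factors, 213 and 490 in edgeR and 368 and 688 in DESeq2. No scaling shifted the all-gene median by as much as 0.1 (log2). With 3 libraries a group and a single low library in PBS, changes under 2-fold were often not detectable.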
